A study of Mus musculus with 13 samples.

Results

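The lipogenic genes described here are the 10 fatty acid synthesis genes Scd1, Scd2, Scd4, Acaca, Acly, Elovl5, Fads1, Me1, Thrsp and Mid1ip1, most of them known or proposed targets of the liver X receptors (LXR). They were chosen by gene symbol and found on 12 probes, with 2 probes each for Scd4 and Me1, and all 10 were among the 7837 genes tested. RNA of left ventricular (LV) tissue was labelled with biotin and read on Illumina mouse BeadChips, 1 array per sample. There were 13 arrays, from male C57BL/6 mice aged 4 months, after 5 weeks of sham surgery or of transverse aortic constriction (TAC), a pressure overload of the LV. The groups were Wt sham (n = 3), Wt TAC (n = 4), LXRα-Tg sham (n = 3) and LXRα-Tg TAC (n = 3), and LXRα-Tg mice carried murine LXRα under the cardiomyocyte-specific αMHC promoter. Wt mice were littermates without the transgene, and no group was left without surgery. By the study's methods, founders came from FVB oocytes, and the line was then crossed back to C57BL/6 over at least 3 generations. No label ties an array to its own mouse, and the p-values therefore reflect array-to-array spread that may be technical.

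LXRα, encoded by Nr1h3, is a nuclear receptor that binds oxysterols, pairs with the retinoid X receptor on DNA and is best known in liver for switching on fatty acid synthesis, directly and through the factor SREBP-1c. Acly cleaves citrate to acetyl-CoA, Acaca carboxylates it to malonyl-CoA, and Me1 supplies NADPH for the synthase. Scd1, Scd2 and Scd4 place a double bond into saturated acyl chains, and Scd4 is known as the isoform of the mouse heart. Elovl5 and Fads1 lengthen and desaturate polyunsaturated chains. Thrsp (Spot 14) and its relative Mid1ip1 are small proteins that bind or modulate the synthesis enzymes.

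Values are normalised log2 signals, so that 1 unit is a 2-fold difference, and a probe was called detected at a detection p under 0.01. Between 9454 and 10392 probes were detected per array. The transgene check came first. Nr1h3 fell into 2 levels, 7.36 to 8.49 on 8 arrays and 14.71 to 14.88 on 5 arrays, with nothing between. On 5 of 13 arrays the level went against the genotype label: Wt sham replicate 3 and Wt TAC replicate 2 were high, while the low level was seen in LXRα-Tg TAC replicate 3 and in replicates 1 and 2 of LXRα-Tg sham. Groups below are therefore arrays labelled Wt or LXRα-Tg, and the lipogenic genes that stood out are also given without these 5 arrays. Leaving them out makes each genotype comparison one between the 2 levels of Nr1h3 as well, and leaves 1 array in LXRα-Tg sham, whose spread is then assumed to be that of the other groups. Of the arrays from mice labelled male, 2 had no detected Eif2s3y, a Y-linked gene (Wt sham replicate 1 and LXRα-Tg TAC replicate 3). All 8 measured cardiomyocyte markers were detected, 7 of them on all 13 arrays and Ryr2 on 8. Of 13 hepatocyte markers with a probe, 10 were detected on at least 1 array, albumin (Alb) on none, and their mean level was highest on Wt sham replicate 3 (9.55) and LXRα-Tg TAC replicate 1 (8.93).

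The start sites of 7 of the 10 genes were found in a RefSeq promoter table of build GRCm38.p6 (250 bases before to 50 after each start, 8 starts in all, since Me1 has 2); Scd1, Scd2 and Fads1 were not. Each stretch was searched on both strands for AGGTCA, the half-site of nuclear receptors, for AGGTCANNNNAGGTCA, the repeat that LXR binds, for TCACNCCA, a core of the SREBP element, for CACGTG and for CCAAT. None of the motifs contains another except AGGTCA within its repeat. The LXR repeat and the SREBP core were in none of the 8, and they were in 0.0152% and 4.36% of all 32851 promoters. AGGTCA was in that of Acly alone (16.3% of all promoters) and CACGTG in that of Elovl5 alone (7.15%). CCAAT, in either orientation, was in those of Acly, Elovl5, Thrsp and 1 start of Me1, against 37.4% of all promoters, and in none of those of Acaca, Mid1ip1 and Scd4. The stretches of Thrsp, Acly and Elovl5, which hold CCAAT, and of Scd4, the heart isoform, which does not, are shown 5′ to 3′ on the gene's strand, with CCAAT or its reverse ATTGG in capitals.
Thrsp, chr7:97417501-97417800, minus strand: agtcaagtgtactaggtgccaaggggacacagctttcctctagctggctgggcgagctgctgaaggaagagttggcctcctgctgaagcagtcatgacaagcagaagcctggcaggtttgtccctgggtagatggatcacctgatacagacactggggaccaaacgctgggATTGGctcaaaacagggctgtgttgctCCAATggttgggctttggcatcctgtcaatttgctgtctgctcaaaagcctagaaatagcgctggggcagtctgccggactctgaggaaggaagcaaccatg
Acly, chr11:100527951-100528250, minus strand: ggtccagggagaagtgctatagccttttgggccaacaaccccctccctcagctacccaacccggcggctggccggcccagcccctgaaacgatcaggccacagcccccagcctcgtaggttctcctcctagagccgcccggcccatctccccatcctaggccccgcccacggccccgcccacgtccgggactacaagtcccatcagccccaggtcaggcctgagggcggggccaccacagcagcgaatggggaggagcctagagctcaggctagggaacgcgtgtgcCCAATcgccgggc
Elovl5, chr9:77917115-77917414, plus strand: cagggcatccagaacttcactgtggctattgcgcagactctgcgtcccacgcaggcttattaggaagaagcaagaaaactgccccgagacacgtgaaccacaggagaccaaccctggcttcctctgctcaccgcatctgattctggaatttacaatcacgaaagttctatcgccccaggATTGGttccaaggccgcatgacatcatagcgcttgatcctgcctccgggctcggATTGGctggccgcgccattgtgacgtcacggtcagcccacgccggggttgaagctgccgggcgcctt
Scd4, chr19:44333076-44333375, plus strand: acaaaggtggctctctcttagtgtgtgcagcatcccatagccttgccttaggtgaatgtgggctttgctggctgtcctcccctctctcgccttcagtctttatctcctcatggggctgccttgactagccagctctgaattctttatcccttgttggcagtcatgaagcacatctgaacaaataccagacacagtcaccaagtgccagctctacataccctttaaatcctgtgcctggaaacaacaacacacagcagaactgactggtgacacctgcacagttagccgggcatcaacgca
Thrsp and Elovl5 each hold 2 such motifs upstream of the start, Acly holds 1 just after it, and Scd4 holds none. These are matches of letters in a window and not shown binding sites.

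Scd1, the main stearoyl-CoA desaturase of liver and fat, had the widest range of the 10. Its log2 signal was 9.44, 8.11 and 9.38 in Wt sham, 7.37, 9.01, 7.09 and 8.38 in Wt TAC, 7.70, 8.46 and 8.76 in LXRα-Tg sham, and 9.85, 8.77 and 9.80 in LXRα-Tg TAC, in replicate order. The LXRα-Tg TAC arrays held the highest 2 values, and the Wt TAC arrays the lowest 2. Over 13 arrays the range was 2.76 on the log2 scale (6.77-fold), which 1.70% of all genes equalled or passed, against a median range of 0.83 over all genes. Group means ran from 7.97 ± 0.89 (SD, n = 4) in Wt TAC through 8.30 ± 0.55 (SD, n = 3) in LXRα-Tg sham and 8.98 ± 0.75 (SD, n = 3) in Wt sham to 9.47 ± 0.61 (SD, n = 3) in LXRα-Tg TAC. Single arrays of each neighbouring pair in that order overlapped.

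**Figure D1:**
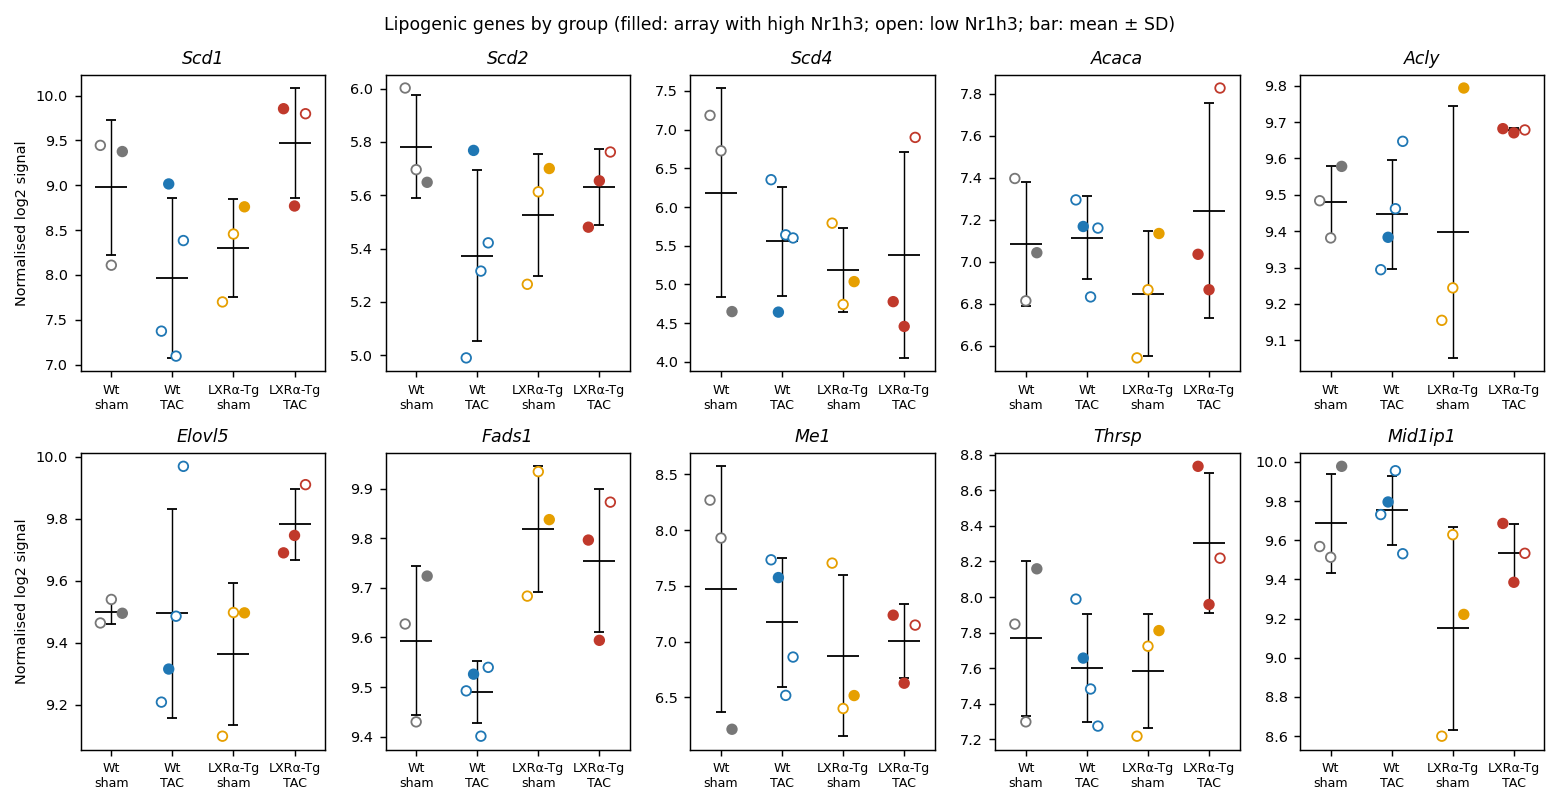
Normalised log2 signal (y axis, own scale per panel) of the 10 lipogenic genes in the 4 labelled groups (x axis). Points are arrays, filled where Nr1h3 was high and open where it was low, bars are means with SD, and Scd1 is highest in LXRα-Tg TAC (9.47 ± 0.61) and lowest in Wt TAC (7.97 ± 0.89).

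After TAC, Scd1 was 1.51 higher on the log2 scale in LXRα-Tg than in Wt (SE 0.48, 95% CI 0.47 to 2.54, 2.84-fold), with an unadjusted p of 0.0079 and a Benjamini-Hochberg adjusted p of 0.988 in limma's fit across 7837 genes. It was higher in all 3 LXRα-Tg TAC arrays than in 3 of the 4 Wt TAC arrays, and the remaining one, Wt TAC replicate 2 (9.01), is one of the arrays with high Nr1h3. Without the 5 arrays that went against their label the difference was 1.69 (SE 0.51). With those arrays kept, it was 1.66 on slide 1 and 1.54 on slide 2. The slide 1 value sets LXRα-Tg TAC replicate 1 alone against Wt TAC replicates 1 and 2. Thrsp was 0.70 higher (SE 0.25, 95% CI 0.17 to 1.24, adjusted p = 0.988) and Fads1 0.26 higher (SE 0.12, 95% CI 0.01 to 0.52, adjusted p = 0.988). Of the 10 genes, 0 passed the adjusted threshold, as did 0 of 7837 genes (0%), so that the comparison made no call at all. At an unadjusted p under 0.05 these 3 genes stood against 4.72% of all genes. Scd1 and Thrsp stayed higher under median scaling (1.28 and 0.47), whereas Fads1 was then at 0.00. That scaling put the median of all genes at -0.20, so Fads1 still lay above it.

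Thrsp was measured at 8.73, 7.96 and 8.22 in LXRα-Tg TAC, and at 7.99, 7.66, 7.48 and 7.28 in Wt TAC. LXRα-Tg TAC replicate 2 lay just below Wt TAC replicate 1, so the ranges overlapped. In sham arrays it was 7.22, 7.72 and 7.81 for LXRα-Tg and 7.85, 7.30 and 8.16 for Wt. Without LXRα-Tg TAC replicate 1 the Thrsp difference after TAC was 0.49 (SE 0.26). That array had the second highest mean of hepatocyte markers, and the part of such RNA in the Thrsp level was not tested.

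Fads1 and Acly were the genes whose LXRα-Tg TAC and Wt TAC arrays did not overlap, 2 of 10 against 5.16% of all genes. Fads1 was 9.80, 9.59 and 9.87 in LXRα-Tg TAC and 9.49, 9.53, 9.40 and 9.54 in Wt TAC. Acly was 9.68, 9.67 and 9.68 in LXRα-Tg TAC, the tightest group of any member (SD 0.0059, n = 3), and 9.29, 9.38, 9.46 and 9.65 in Wt TAC. The gap between the groups was small for both, and the Acly difference was 0.23 (SE 0.15, 95% CI -0.10 to 0.56, adjusted p = 0.988). Elovl5 differed by 0.29 (SE 0.17), Scd2 by 0.26 (SE 0.18) and Acaca by 0.13 (SE 0.23), all toward LXRα-Tg. Scd4, Me1 and Mid1ip1 differed by -0.18 (SE 0.65), -0.17 (SE 0.47) and -0.22 (SE 0.21). Without the 5 arrays Scd4 differed by -1.25 (SE 0.27), Thrsp by 0.76 (SE 0.30) and Fads1 by 0.22 (SE 0.15). Scd4 was not detected on the LXRα-Tg TAC arrays that remained (signal 12.8 in replicate 1 and 2.1 in replicate 2). Its difference there sets background against arrays through which it passed the filter on dim probes, and is no test of Scd4. In all, 7 of 10 were higher and the median difference was 0.24, against -0.01 over all genes. Under median scaling 5 of 10 were higher, while 7 lay above the median of all genes, which that scaling put at -0.20.

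Within LXRα-Tg, TAC was compared with sham. Scd1 was 1.17 higher after TAC (SE 0.51, 95% CI 0.06 to 2.28), Thrsp 0.72 higher (SE 0.27, 95% CI 0.14 to 1.29) and Elovl5 0.42 higher (SE 0.19, 95% CI 0.02 to 0.82), with limma adjusted p-values of 0.694, 0.643 and 0.695. They were also the 3 of 10 whose arrays did not overlap between the groups, against 12.1% of all genes; the closest Scd1 arrays were LXRα-Tg TAC replicate 2 (8.77) and LXRα-Tg sham replicate 3 (8.76). Elovl5 was 9.69, 9.75 and 9.91 after TAC and 9.10, 9.50 and 9.50 after sham. At an unadjusted p under 0.05 these 3 stood against 7.04% of all genes, and 0 of 10 and 0% of all genes passed after adjustment. The fit without the 5 arrays, with 1 LXRα-Tg sham array left and its spread taken from the other groups, gave smaller values: Scd1 differed by 0.55 (SE 0.69), Thrsp by 0.53 (SE 0.41) and Elovl5 by 0.22 (SE 0.29), and 5 of 10 genes were higher in place of 9. On the probes used, Fads1 was the gene that was lower with all arrays (-0.06, SE 0.13). Me1 was lower on its dimmer probe (-0.32).

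In Wt, 8 of the 10 were lower after TAC than after sham, with a median of -0.14 against 0.02 over all genes. Under median scaling 4 were lower than 0 and 3 lay above the all-gene median of 0.19. Scd1 differed by -1.01 (SE 0.48, 95% CI -2.05 to 0.03, limma adjusted p = 0.725) and Scd2 by -0.41 (SE 0.18, 95% CI -0.80 to -0.02, adjusted p = 0.722). Scd2, an isoform known best from brain, was 6.00, 5.70 and 5.65 in Wt sham and 4.99, 5.77, 5.32 and 5.42 in Wt TAC, so that 1 Wt TAC array, again replicate 2, lay among the Wt sham arrays. Scd2 was the 1 gene of 10 with an unadjusted p under 0.05 (6.88% of all genes), 0 passed after adjustment (0% of all genes), and no member's arrays separated (7.29% of all genes). Without the 5 arrays the differences were -1.16 (SE 0.51) for Scd1 and -0.61 (SE 0.18, limma adjusted p = 0.540) for Scd2. Scd4 then differed by -1.09 (SE 0.27, adjusted p = 0.524) in place of -0.63, and Me1 by -1.06 (SE 0.35, adjusted p = 0.540) in place of -0.30. Of the 10 genes 6 were then lower, 3 had an unadjusted p under 0.05 and 0 were called.

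Between the sham groups, 9 of 10 were lower in LXRα-Tg than in Wt, the exception being Fads1 (0.22, SE 0.13), and the median was -0.25 against -0.01 over all genes. Under median scaling 6 were lower than 0 and 1 lay above the all-gene median of 0.15. Mid1ip1 differed by -0.54 (SE 0.23, 95% CI -1.03 to -0.05), with a limma adjusted p of 0.266. It was 8.60, 9.63 and 9.22 in LXRα-Tg sham and 9.57, 9.51 and 9.98 in Wt sham, and the lowest of these is LXRα-Tg sham replicate 1, which was also the lowest of all 13 arrays for Acaca, Acly, Elovl5 and Thrsp. Scd1 differed by -0.67 (SE 0.51) and Scd4 by -0.997 (SE 0.70). The comparison called 1.58% of all genes and 0 of the 10. Mid1ip1 was the 1 gene with an unadjusted p under 0.05, against 16.1% of all genes, and no member's arrays separated, against 20.4%. Without the 5 arrays, and so with the 1 remaining LXRα-Tg sham array, Mid1ip1 differed by -0.32 (SE 0.24) and Scd1 by -0.02 (SE 0.69). Scd4 then differed by -1.92 (SE 0.36) and Me1 by -1.58 (SE 0.47), the latter in place of -0.60 with all arrays. Scd4 was not detected on that LXRα-Tg sham array (signal 15.5). Its difference sets background against arrays through which it passed the filter on dim probes, and is no test of Scd4. Of the 10 genes 6 were then lower and 0 were called.

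**Figure D2:**
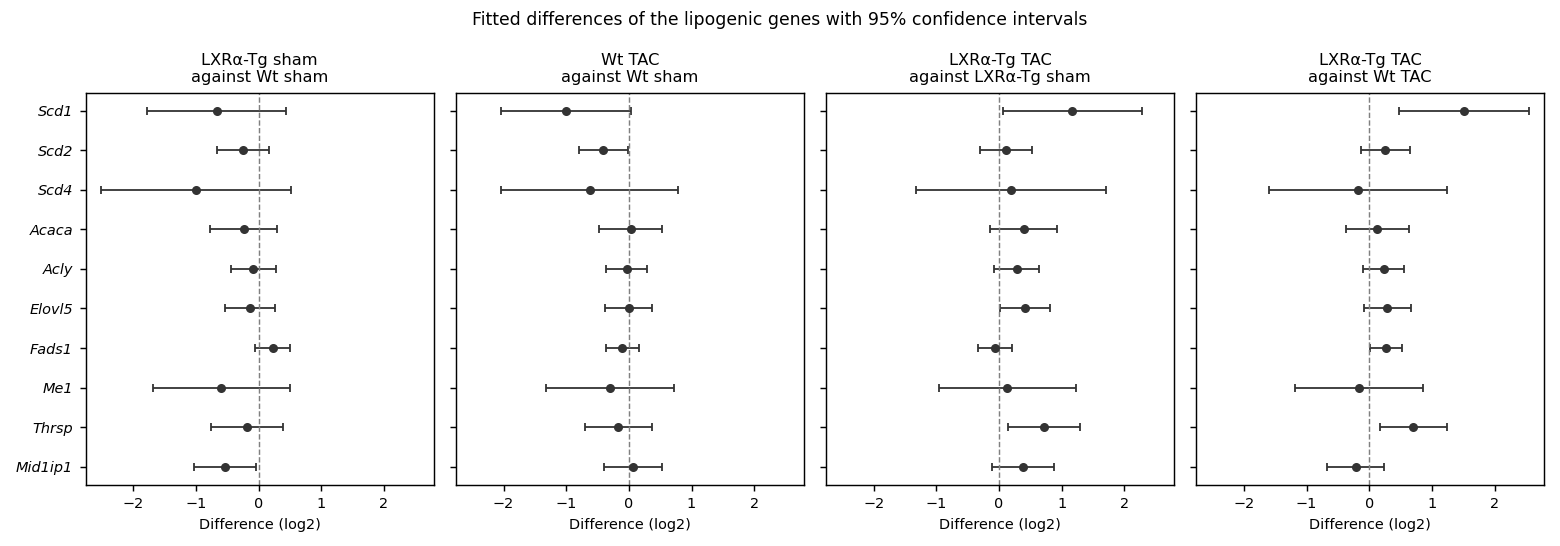
Fitted log2 differences (x axis) of the 10 lipogenic genes (y axis) in the 4 comparisons between groups, as points with 95% confidence intervals from limma's fit to 13 arrays. The Scd1 difference is 1.51 for LXRα-Tg TAC against Wt TAC and -1.01 for Wt TAC against Wt sham, and most intervals include 0.

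The TAC effects of the genotypes were then set against each other. The effect on Scd1 was 2.18 higher on the log2 scale in LXRα-Tg than in Wt (SE 0.70, 95% CI 0.66 to 3.70, limma adjusted p = 0.319), and that on Thrsp 0.89 higher (SE 0.36, 95% CI 0.10 to 1.67, adjusted p = 0.426). All 10 genes had a positive difference on the probes used, with a median of 0.43 against -0.01 over all genes. On the dimmer Me1 probe, detected on 9 arrays, the difference was -0.21. Under median scaling 6 were above 0 and all 10 above the all-gene median of -0.37, and without the 5 arrays 7 were positive. In that fit the difference was 1.71 for Scd1 (SE 0.86, limma adjusted p = 0.543), 0.53 for Thrsp (SE 0.51, adjusted p = 0.762) and 1.48 for Me1 (SE 0.59, adjusted p = 0.488), the last in place of 0.43. Scd1 and Thrsp were the 2 of 10 with an unadjusted p under 0.05 (10.2% of all genes), and 0 of 10 and 0% of all genes passed after adjustment. Without the 2 arrays lacking Eif2s3y the Scd1 difference was 1.78 (SE 0.81) and 6 of 10 were positive. This contrast shares its arrays with the comparisons above and is not a separate observation. Tested for any difference among the 4 groups, Scd1 had the 1 unadjusted p under 0.05 (0.0357, adjusted 0.421), against 10.9% of all genes, and 0% of genes passed after adjustment.

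Against the level of Nr1h3 itself the genes behaved differently from one another. Since Nr1h3 is the measure that set the 5 high arrays apart, their values are given as a description, with no test and no average between them. On the 5 arrays with high Nr1h3, Scd1 ran from 8.76 to 9.85 (median 9.01), and on the 8 others from 7.09 to 9.80 (median 8.25). Of the 8 arrays with low Nr1h3, 6 lay below every array with high Nr1h3, as was so for 2.85% of all genes; the 2 exceptions were Wt sham replicate 1 (9.44) and LXRα-Tg TAC replicate 3 (9.80). These 2 are also the arrays without detected Eif2s3y.

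Scd4 showed the reverse. Its brighter probe was detected on 0 of the 5 arrays with high Nr1h3 (4.46 to 5.04) and on 7 of the 8 with low Nr1h3 (5.60 to 7.18), the exception being LXRα-Tg sham replicate 2 (4.74). In signal units before normalisation it read 7.0 in Wt sham replicate 3 and 8.2 in Wt TAC replicate 2, labelled Wt with high Nr1h3, against 83.2 in LXRα-Tg TAC replicate 3 and 47.5 in LXRα-Tg sham replicate 1, labelled LXRα-Tg with low Nr1h3. Such a pattern, with at least 7 of 8 low arrays above every high one, held for 1.61% of all genes. Scd4 passed the filter on dim probes through those 7 arrays, its levels on the others are at background, and its dimmer probe was detected on 1 array. Whether the probe reads other Scd transcripts was not tested. By label, Scd4 was 6.19 ± 1.35 (SD, n = 3) in Wt sham and 5.38 ± 1.33 (SD, n = 3) in LXRα-Tg TAC, within which single arrays were on either level. Of the Scd genes, which lie side by side on chromosome 19, Scd1 and Scd2 did not share this pattern. Of the nearest measured genes on either side in the order of GRCm38.p6, none of Cox15, Cutc, Erlin1, Ndufb8, Mrpl43 and Twnk had separate ranges. The ranges of Scd4 itself overlapped too, through LXRα-Tg sham replicate 2. Its pattern of at least 7 of 8 low arrays above every high one was not counted for these neighbours, so whether they share it was not tested.

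**Figure D3:**
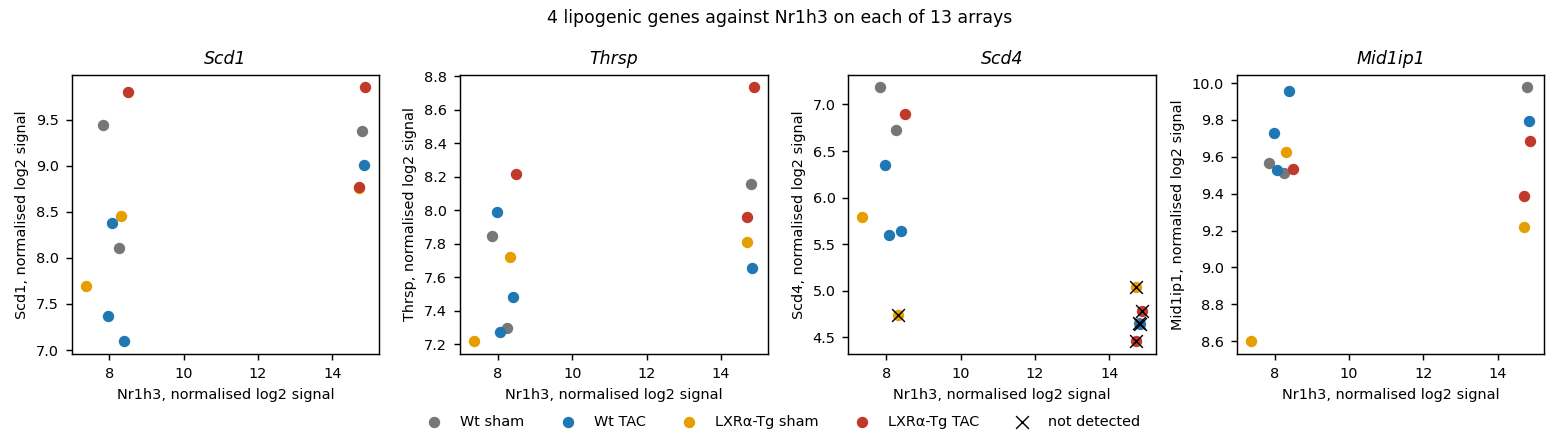
Normalised log2 signal of Scd1, Thrsp, Scd4 and Mid1ip1 (y axes) against that of Nr1h3 (x axes) on 13 arrays, coloured by labelled group, with crosses where the probe was not detected. Scd4 lies at 4.46 to 5.04 on the 5 arrays with high Nr1h3, and at 5.60 to 7.18 on 7 of the 8 with low Nr1h3.

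The other genes overlapped between the 5 and 8 arrays. None of the 10 separated fully, against 1.22% of all genes. Me1 lay at 6.21 to 7.57 on the arrays with high Nr1h3 and 6.40 to 8.27 on the others, and 4 of the 8 low arrays lay above all high ones. Acly (9.38 to 9.79 against 9.15 to 9.68) and Thrsp (7.66 to 8.73 against 7.22 to 8.22) each had 4 low arrays below all high ones. Acaca, Elovl5 and Fads1 had low arrays both below and above all high ones, 3 and 3 for Acaca, 2 and 2 for Elovl5, and 3 and 2 for Fads1. The share of all genes that reach such counts was not determined, so the counts set none of these genes apart. Within the 8 arrays with low Nr1h3, where the remaining Nr1h3 signal is from 7.36 to 8.49, 0 of 10 genes followed it after adjustment over the 10 relations. The closest was Mid1ip1 (Pearson r = 0.78, exact permutation p = 0.047, adjusted 0.422; Spearman rho = 0.38, exact permutation p = 0.36, adjusted 0.72), and r fell to 0.43 without the 2 arrays farthest from the median of Nr1h3. For Scd1 r was 0.21 (exact permutation p = 0.636, adjusted 0.795) and rho 0.19 (exact permutation p = 0.665, adjusted 0.831).

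The genes were next compared with Scd1 across all 13 arrays (9 relations, 100000 two-sided permutations, p-values adjusted over the 9). Scd2 (r = 0.71, permutation p = 0.0052, adjusted 0.0467; rho = 0.65, permutation p = 0.0192, adjusted 0.0862) and Thrsp (r = 0.68, permutation p = 0.0105, adjusted 0.0472; rho = 0.69, permutation p = 0.0115, adjusted 0.0862) passed by r and missed by rho. Without the 2 arrays farthest from the Scd1 median, r was 0.51 for Scd2 and 0.89 for Thrsp. With group means subtracted, r was 0.66 for Scd2 and 0.47 for Thrsp, so differences between groups enter the Thrsp relation. On slide 1 (n = 6) and slide 2 (n = 7) r was 0.68 and 0.89 for Scd2, and 0.61 and 0.80 for Thrsp. Acly (0.57), Fads1 (0.59), Acaca (0.53) and Elovl5 (0.48) had positive r with adjusted p from 0.0941 to 0.151. Scd4 (-0.11), Me1 (-0.02) and Mid1ip1 (0.15) did not move with Scd1 to a detectable degree. Under median scaling 0 of 9 passed, and 0 to 3 passed when 1 array was left out, with 3 without LXRα-Tg sham replicate 2 and 0 without Wt sham replicate 1 or 3, any LXRα-Tg TAC array but replicate 1, LXRα-Tg sham replicate 1 or 3, or Wt TAC replicate 3.

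Over all 45 pairs of the 10 genes, 32 had a positive r, from -0.40 to 0.74 with a median of 0.24, and 0 passed after adjustment over the 45. The highest was that of Acly and Elovl5 (r = 0.74, permutation p = 0.0041, adjusted 0.137; rho = 0.62, permutation p = 0.0275, adjusted 0.252), at r = 0.92 on slide 1 and 0.40 on slide 2. Scd4 and Me1 reached r = 0.68 (permutation p = 0.0127, adjusted 0.143; rho = 0.63, permutation p = 0.0252, adjusted 0.252), at 0.90 and 0.83 on the slides. Scd4 was detected on 7 arrays and lay at background on the others. Its r with Me1 therefore sets background against signal in part, and is no test of Scd4. The brighter Me1 probe ran from 6.21 to 8.27, and the dimmer one, detected on 9 arrays, differed from it in the direction of the TAC difference in LXRα-Tg (-0.32 against 0.13). The same held for the difference of the TAC effects (-0.21 against 0.43).

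Of all genes measured, the 5 closest to Scd1 over 13 arrays by Pearson r were Ift172 (0.91), a component of ciliary transport, P4ha1 (0.83), a prolyl hydroxylase of collagen, Rnf8 (0.80), Ddx24 (0.79) and Gfer (0.79). For Thrsp they were Tkfc (0.81), a kinase of dihydroxyacetone, Zfp46 (0.78), Parp16 (0.78), Cdk5r1 (0.77) and Grina (0.76). None of these 10 is a gene of fatty acid synthesis. They were picked for their likeness and no p is given.

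The genes were also set against markers of other cells. White adipocytes make the same lipogenic enzymes in bulk. Of 10 white adipocyte markers 9 had a probe, and 6 of these (Lep, Plin1, Retn, Cidec, Fabp4 and Lgals12) were detected on no array, while Adipoq was on 6 and Car3 and Adig on 7. The summed linear level of all 9 was 240.4 to 299.7 in Wt sham, 236.7 to 276.7 in Wt TAC, 218.8 to 260.0 in LXRα-Tg sham and 207.8 to 325.1 in LXRα-Tg TAC. These sums hold the 6 probes detected on no array and the offset of 16 per probe. Background therefore makes up much of them, and their likeness between groups does not measure fat content. Against the mean of the 3 detected markers, r was 0.72 for Acaca (permutation p = 0.0058, adjusted 0.058; rho = 0.52, permutation p = 0.0707, adjusted 0.193) and 0.57 for Scd1 (permutation p = 0.0432, adjusted 0.179; rho = 0.56, permutation p = 0.0495, adjusted 0.193), and 0 of 10 passed. Without the farthest 2 arrays r was 0.52 for Acaca and 0.60 for Scd1. In LXRα-Tg TAC replicate 3 the adipocyte mean (5.97), Acaca (7.83) and Scd1 (9.80) were all high. Bulk LV RNA cannot tell more cells of a type from more RNA per cell.

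Against the mean of 10 hepatocyte markers, r was 0.67 for Scd1 (permutation p = 0.0125, adjusted 0.125; rho = 0.51, permutation p = 0.0813, adjusted 0.267), 0.55 without the farthest 2 arrays, and 0 of 10 genes passed. The summed hepatocyte level was 1890 to 12898 in Wt sham, 652 to 5002 in Wt TAC, 683 to 3169 in LXRα-Tg sham and 2158 to 9171 in LXRα-Tg TAC. Without the 2 arrays highest in these markers, Scd1 was 1.32 higher in LXRα-Tg TAC than in Wt TAC (SE 0.55, adjusted p = 0.822) and Thrsp 0.49 higher (SE 0.24, adjusted p = 0.822). The summed level of 10 kidney tubule markers, all detected on at least 1 array, was 381 to 2816, 418 to 582, 377 to 516 and 445 to 910 in the same order of groups. That of 7 macrophage markers was 1688 to 2530, 1541 to 2289, 2439 to 3590 and 1882 to 2258. The part of such cells in the lipogenic genes was not tested.

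**Figure D4:**
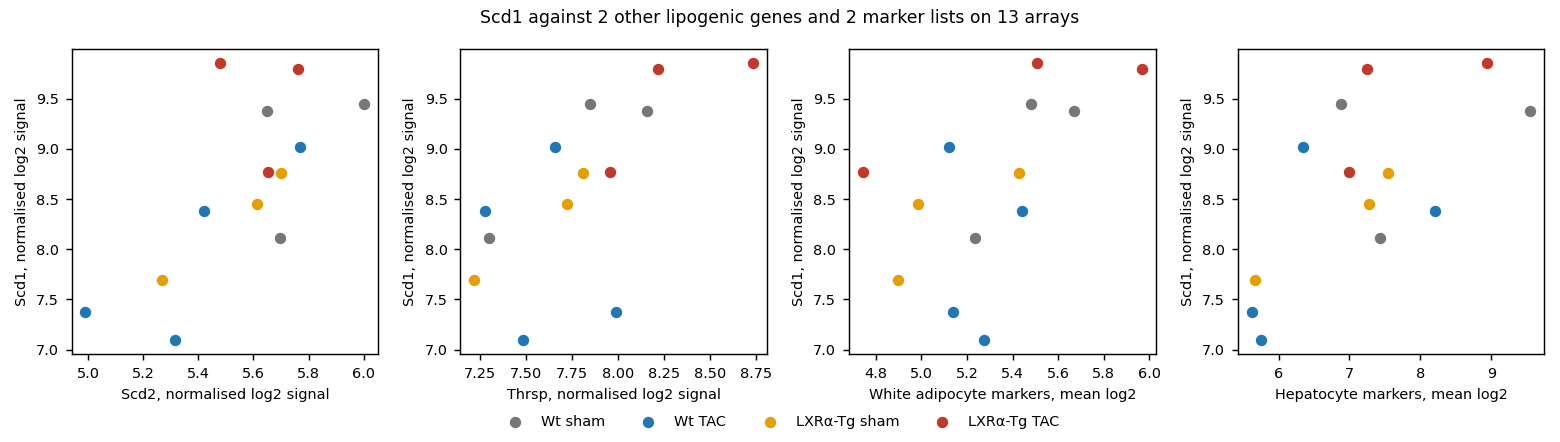
Normalised log2 signal of Scd1 (y axis) against Scd2, Thrsp and the mean log2 level of 3 white adipocyte and 10 hepatocyte markers (x axes) on 13 arrays, coloured by labelled group. Pearson's r was 0.71 for Scd2 and 0.68 for Thrsp, which passed after adjustment by r alone, and 0.57 and 0.67 for the marker lists, which did not pass.

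Other genes of the pathway were followed by lists of known function, and 0 of their measured members passed the adjusted threshold in any of the 5 comparisons. Fasn, the synthase itself, was detected on 1 array and Srebf1, which encodes SREBP-1c, on 2, so neither could be compared. Of fatty acid synthesis, 4 further genes were measured. Slc25a1, the mitochondrial citrate carrier, was 0.41 higher in LXRα-Tg TAC than in Wt TAC (SE 0.15, limma adjusted p = 0.988), Acss2 differed by 0.13 (SE 0.15) and Aacs by 0.23 (SE 0.19), and all 4 were on the higher side in this comparison. Of 8 measured genes of elongation and desaturation, 6 were on that side, and of 6 of NADPH supply, 2. Scd3, Fads2, Elovl2 and Elovl7 were detected on no array and Elovl6 on 2.

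Of the receptors and regulators, Rxrg, a partner of LXR that is expressed in muscle, was 0.59 lower in LXRα-Tg sham than in Wt sham (SE 0.15, limma adjusted p = 0.065), and its TAC effects differed by 0.75 (SE 0.20, adjusted p = 0.229). Ppargc1b differed by -0.67 between the sham groups (SE 0.19, adjusted p = 0.105), and Ppargc1a was 0.73 higher after TAC in LXRα-Tg (SE 0.34, adjusted p = 0.695). None of these passed. The genes of these further lists are given with all arrays only, among them the 5 with Nr1h3 against the label, so the differences are between labels. Of LXR targets outside lipogenesis, Abca1, Abcg1, Abcg8 and Mylip were detected on no array, and Abcg5 on 1. Lpcat3, which remodels membrane phospholipids, was 0.56 lower in LXRα-Tg sham than in Wt sham (SE 0.14, adjusted p = 0.065) and its TAC effects differed by 0.79 (SE 0.19, adjusted p = 0.185). Apoe was 0.40 higher in LXRα-Tg TAC than in Wt TAC (SE 0.25, adjusted p = 0.988). Of 9 measured genes of triglyceride synthesis and storage, 6 were lower in LXRα-Tg TAC than in Wt TAC, among them Agpat2 (-0.45, SE 0.18, adjusted p = 0.988), and Plin5, a coat protein of lipid droplets, differed by -0.69 between the sham groups (SE 0.33, adjusted p = 0.330).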

How the data were processed

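RNA of 13 LV samples was read on Illumina mouse BeadChips, 6 arrays on slide 1 and 7 on slide 2. The authors deposited a table of linear signal intensity per probe, background-subtracted in GenomeStudio 2011.1 (the submitters' processing notes) and not normalized between arrays, and the detection p-value of each probe against that array's negative controls. A second deposited table of processed intensity values served as an alternative. Genes are named by the platform annotation, the sources used here name no tool for that table's normalization, and no array was left out. Intensities were corrected and quantile normalized by limma's neqc at offset 16 (limma 3.58.1, R 4.3.3). A probe had to be detected at p under 0.01 on 3 or more arrays (11028 probes), and each of 7837 genes was read from its brightest probe. Means of the 4 groups were estimated together in limma (lmFit, eBayes, 9 residual degrees of freedom), and p-values were adjusted over all genes by Benjamini and Hochberg and called under 0.05. Depth has no direct counterpart on arrays, and the number of arrays limits the precision.

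Groups came from the sample labels, and replicate numbers are running numbers that pair no arrays. Relations across arrays used Pearson's r and Spearman's rho with 100000 permutations, or all 40320 orders for 8 arrays, with scipy 1.17.1, numpy 2.4.6 and pandas 2.3.3 under Python 3.11.15, figures were drawn with matplotlib 3.10.9, and the fit was tested on simulated data. The genes and lists were chosen with earlier results of these data known. Named were the 10 genes on every probe, Nr1h3, up to 3 genes of each further list with the largest difference in a comparison (or those called), and the 5 genes most like Scd1 and Thrsp. The split by Nr1h3, the neighbours of the Scd genes, Eif2s3y and the hepatocyte relation were chosen after the data were seen. Promoters came from RefSeq, build GRCm38.p6. Tried as alternatives were no background correction, median scaling, the processed values, another offset, other filters on dim probes, the mean of probes, slide as a block or alone, a fit without each array in turn or on the compared groups alone, array weights, the methods' ANOVA with Bonferroni correction and the methods' t-test.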

Additional observations from a re-analysis of the deposited data

Results flagged for a closer look

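Among the lipogenic genes and Nr1h3, the group of 4 arrays (Wt TAC) was searched for a single array far from the others. Nr1h3 of Wt TAC replicate 2 lay at 14.84 against 7.97 to 8.39 on the other 3, a gap of 0.938 of the whole range, which is past Dixon's limit at the 95% level. Nr1h3 was already known to fall into 2 levels, with Wt TAC replicate 2 the only high array of its group, so the mark restates that split. For a gene without such levels chance marks about 1 in 20 such groups, and none of the 10 lipogenic genes was marked.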

How the results depend on the processing

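The count of lipogenic genes called was 0 in each of the 5 comparisons and stayed 0 under every alternative run, except under the methods' t-test without adjustment, which gave 1 for LXRα-Tg TAC against LXRα-Tg sham and 3 for LXRα-Tg TAC against Wt TAC; adjusted, it gave 0. A count of 0 has no call to lose and says nothing about stability. The 12 gene differences with an unadjusted p under 0.05, or of Scd1, kept their direction in all 336 alternatives. Of 9 genes tested against Scd1, 2 passed; the count was 0 under median scaling, 1 with group means subtracted, and 0 to 3 with single arrays left out, the 3 without LXRα-Tg sham replicate 2. Against white adipocyte markers 0 passed, 2 with group means subtracted, and 0 to 4 with single arrays left out, the 4 without LXRα-Tg TAC replicate 2. No paired analysis was possible because the labels give the arrays no replicate numbers. With 3 or 4 arrays a group, the intervals of Scd1, Scd4 and Me1 span more than 1 on the log2 scale on either side. Low signal limits Scd4, detected on 7 arrays.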
